A study of Mus musculus with 24 samples.

Results

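The data described here are the expression levels of 33000 annotated genes in the frontal cortex of wild-type (WT) mice. The 12 libraries whose labels begin with WT were taken out of the 24 libraries of the series, and the 4 libraries of each mouse were summed, giving 3 mice (WT1, WT2 and WT3). The animals were C57BL/6 mice, 3 months old, and the 3 WT animals are the only replicates. The frontal cortex was dissected after cervical dislocation and snap-frozen, and total RNA was extracted with Trizol, so every cell type of the dissected block contributed RNA. The other 12 libraries came from GFAP-IL6 mice, in which the astrocyte promoter of Gfap drives interleukin-6, and were not used here. Expression was measured with 3′Pool-seq, in which cDNA primed with oligo-dT is barcoded, pooled and fragmented, and the fragment next to the poly(A) tail is sequenced. From each mouse, 2 libraries were made with 2 ng and 2 with 1 ng of cDNA in the fragmentation step. The labels divide them further into an A and a B set without saying what the letters stand for.

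The cerebral cortex is built from glutamatergic projection neurons arranged in layers, from several classes of GABAergic interneurons, and from astrocytes, oligodendrocytes, microglia and the cells of blood vessels. Each class is known for genes that the others express weakly, and the level of these genes in bulk RNA follows both the number of the cells and the RNA that each of them holds. In bulk tissue fewer cells of a type and less RNA per cell cannot be told apart. Levels are given as CPM, the counts of a gene scaled so that all genes of a mouse sum to 1000000. They were not divided by gene length, because a transcript gives 1 fragment in this assay whatever its length. Values of a single gene are written in the order WT1, WT2, WT3.

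The summed libraries held 19098634, 18236001 and 7852743 counts, and a single library between 1524165 and 6388981. WT3 was thus the shallowest of the 3 mice. A gene with no count in a mouse may still have reached 0.157, 0.165 and 0.382 CPM, the level of 3 counts. The reads carried no molecular identifiers, so these limits cover counting error only. Xist, which is transcribed from the inactive X chromosome of females, had 0 counts in all 3 mice. Of the Y-linked genes, Ddx3y stood at 48.9, 56.0 and 41.1 CPM, Eif2s3y at 49.3, 48.3 and 46.2 CPM, Kdm5d at 7.49, 7.79 and 10.4 CPM and Uty at 6.07, 7.18 and 9.30 CPM, so all 3 mice had the expression pattern of males.

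Of the 33000 genes, 12951 were above 1 CPM in all 3 mice, and 12391 of these (95.7%) were protein-coding. A level above 10 CPM was reached in all 3 mice by 8492 genes, above 100 CPM by 1728 genes, and above 1000 CPM by 70 genes. No count was found in any mouse for 13682 genes. Most of the counts lay on genes of intermediate level. The single most abundant gene took 3.64%, 4.995% and 5.60% of the counts, and the top 1000 genes of each mouse took 60.2%, 61.0% and 61.4%. To reach 50% of the counts 550, 516 and 495 genes were needed. By mean level, the 6985 genes between 10 and 100 CPM held 25.4% of the counts, the 1797 genes between 100 and 1000 CPM 45.1%, and the 80 genes above 1000 CPM 27.3%.

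**Figure D1:**
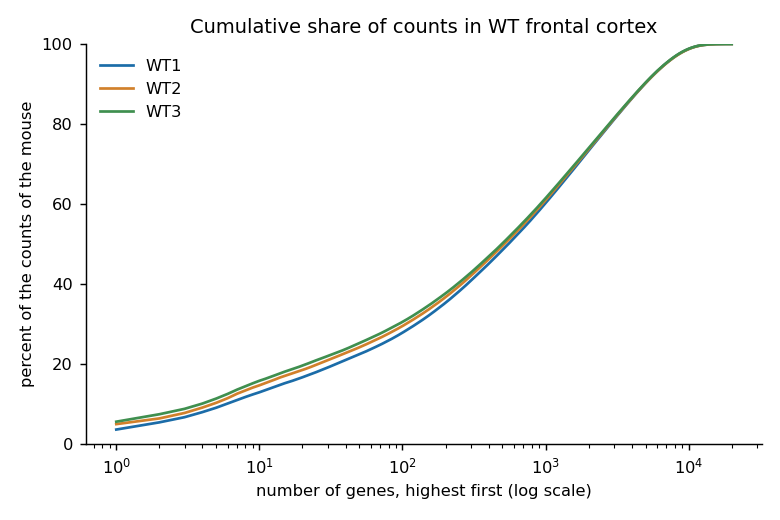
Cumulative percent of the counts of each WT mouse (y axis) against the number of genes, ordered from the highest level down (x axis, log scale). The 3 curves lie close together, with WT3 above the others at the left, where its most abundant gene took 5.60% of the counts against 3.64% in WT1.

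The 10 genes with the highest mean level were of 3 kinds: mitochondrial transcripts, nuclear noncoding RNAs, and a few protein-coding messengers. The mitochondrial large ribosomal RNA mt-Rnr2 led with 36384, 49952 and 56047 CPM. The nuclear RNA Malat1, a long noncoding RNA of nuclear speckles, followed with 17978, 14214 and 12549.8 CPM, and the noncoding gene Yam1 with 8957, 11436 and 18594 CPM. These leading genes did not keep the same order in the mice, since Malat1 was above Yam1 in WT1 and WT2 and below it in WT3. The mitochondrial genes among the 10 were mt-Cytb, the cytochrome b of complex III, with 12900.2, 13669.9 and 11542 CPM, the small ribosomal RNA mt-Rnr1 with 11053, 13506 and 13492 CPM, and the complex I subunits mt-Nd1 with 10457, 11942 and 13224 CPM and mt-Nd4 with 6301, 7217 and 7308 CPM. The nuclear messengers among them included the ferritin heavy chain Fth1 with 7439, 8046 and 8460.0 CPM, and the secreted protease inhibitor Cst3 (cystatin C) with 5312, 5435 and 6219 CPM. Together the 10 genes held 12.9%, 14.7% and 15.8% of the counts. Of the nuclear genes, Malat1, Yam1 and Fth1 had a CV over the 3 mice of 18.6%, 38.5% and 6.43%.

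The mitochondrial chromosome, with 37 genes, took 8.76%, 10.8% and 11.4% of the counts. Its 2 ribosomal RNAs made up 4.74%, 6.35% and 6.95%, its 13 protein-coding genes 3.82%, 4.23% and 4.11% and its 22 tRNA genes 0.200%, 0.205% and 0.301%. The ratio of ribosomal to protein-coding counts was 1.24 in WT1, 1.502 in WT2 and 1.69 in WT3. The differences between the mice in the mitochondrial share were thus carried mostly by the ribosomal RNAs, while the protein-coding share changed less.

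Because the assay sequences fragments from the 3′ end of a transcript, the annotated ends of 5 neuronal genes described in the text are shown. The reads come from fragments that reach this end and need not cover the bases shown. Each line gives 30 bases of the sense strand close to the 3′ end of a GENCODE vM21 transcript (GRCm38.p6), with the poly(A) signal AATAAA or ATTAAA in capitals:
Snap25: aaaattATTAAAaattatagatcacagcca
Nrgn: gtgaatAATAAAgaggaatgtctaagtgta
Cck: tatgctATTAAAgagatttccttctgcccc
Sst: atacaaAATAAAattatggtgagattatga
Fos: attgtcAATAAAagcatttaagttgaatgc
They lie in the last exon of each gene, at chr2:136782395-136782424 (plus strand) for Snap25, chr9:37544492-37544521 (minus) for Nrgn, chr9:121489827-121489856 (minus) for Cck, chr16:23889580-23889609 (minus) for Sst and chr12:85477243-85477272 (plus) for Fos. The signal of Snap25 ends 22 bases before the annotated end, that of Nrgn 18 and that of Cck 21. The windows were placed around the signal. Of all coding genes 78.7% hold AATAAA or ATTAAA in the last 50 bases of a transcript.

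Protein-coding genes took 91.5%, 90.1% and 88.9% of the counts (90.2% ± 1.32, SD, n = 3). Long intergenic noncoding RNAs (lincRNA) took 3.29%, 3.12% and 3.63% and antisense genes 0.150%, 0.145% and 0.136%. Most of the lincRNA counts lay on few genes, since Malat1 alone held 44.6% of the counts of the type, and without Malat1 and Yam1 the remaining lincRNA genes held 0.598%, 0.558% and 0.513% of all counts. The third lincRNA gene by level was Meg3, a maternally expressed imprinted RNA of neurons, with 2106, 1877 and 1598 CPM. Of the 3397 lincRNA genes 273 were above 1 CPM in all mice, against 12391 of 21958 protein-coding genes, that is 8.04% against 56.4%.

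**Figure D2:**
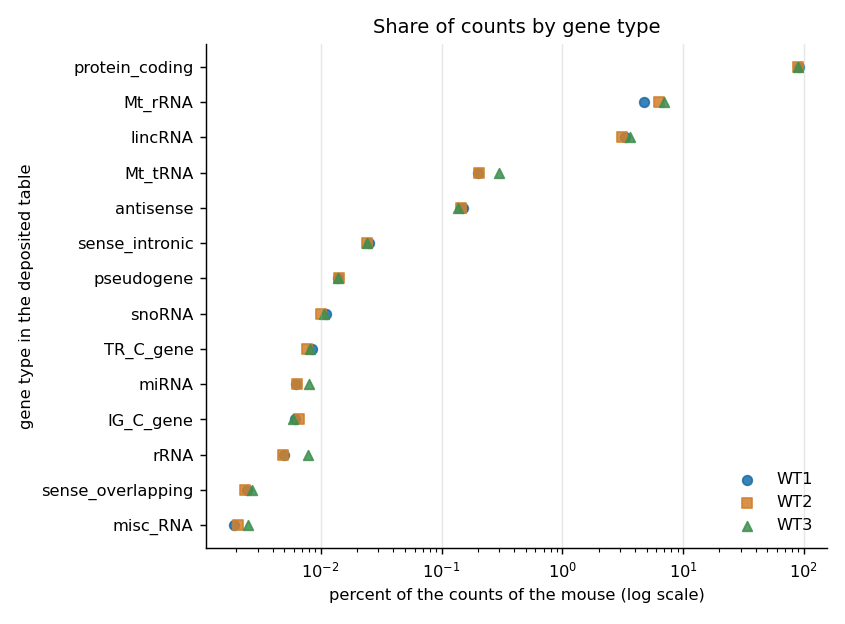
Percent of the counts of each mouse (x axis, log scale) on the gene types of the deposited table with the highest shares (y axis), with 1 point per WT mouse. Protein-coding genes held between 88.9% and 91.5%. The points of WT3 lie to the right of the others for mitochondrial rRNA and tRNA, lincRNA, miRNA, rRNA, sense-overlapping and miscellaneous RNA genes.

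Oligo-dT primes on any run of adenines, and Malat1 lacks a classical poly(A) tail after processing of its 3′ end. The longest run of adenines in its transcript of 6983 bases holds 12 bases, begins at base 6674 and is shown in capitals:
Malat1: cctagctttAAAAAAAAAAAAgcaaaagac
It lies at chr19:5795979-5796008 on the minus strand (GRCm38.p6), 298 bases before the annotated end of the transcript. Whether the Malat1 fragments began there could not be read from counts per gene. The Yam1 row that held the counts (ENSMUSG00000098178, named Gm42418 in GENCODE vM21) lies at chr17:39846958-39848788 on the plus strand. It lies within an 18S ribosomal RNA-like gene annotated on the minus strand, Rn18s-rs5 (ENSMUSG00000106106), which held 5.34 CPM. A further row with the symbol Yam1, on the minus strand, had 0 counts. Genes of the type rRNA took 0.00492%, 0.00485% and 0.00778% of the counts, and with Yam1 added 0.901%, 1.15% and 1.87%. With Yam1 set apart, the lincRNA share was 2.396%, 1.98% and 1.77% and was highest in WT1 rather than in WT3.

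Among antisense genes Kcnq1ot1, an imprinted RNA opposite to Kcnq1, was highest with 84.2, 79.7 and 64.9 CPM, while Kcnq1 itself stood at 0.496 CPM on average. It was followed by RP24-68G17.4, opposite to Lrrc40, with 64.5, 69.9 and 65.5 CPM, and by Gt(ROSA)26Sor, the RNA of the Rosa26 locus opposite to Thumpd3, with 50.2, 44.6 and 43.7 CPM. The coding partners Lrrc40 and Thumpd3 were lower, at 23.2 and 23.9 CPM. The strand setting of the authors' counting is not given in the sources used here, so counts of such overlapping pairs are uncertain. The highest sense-intronic gene was the imprinted Peg13, within Trappc9 on the same strand, with 73.2, 64.7 and 83.8 CPM. The leading members of the small types were mt-Tv (mitochondrial tRNA) with 364, 386 and 574 CPM, n-R5-8s1 (rRNA) with 45.0, 43.1 and 68.6 CPM, Fam181b (pseudogene in the deposited table, protein-coding in GENCODE vM21) with 27.8, 30.2 and 29.2 CPM, and Gm26205 (snoRNA, within Rpl6) with 21.3, 16.7 and 15.7 CPM. Lower still were the leaders of the sense-overlapping type, Gm20646 with 7.91, 7.07 and 8.15 CPM, and of the miscellaneous RNAs, Rn7sk with 4.87, 4.66 and 8.53 CPM. Of 2202 miRNA genes 8 were above 1 CPM in all mice, and mmu-mir-703 was highest with 23.9, 30.9 and 37.8 CPM. Its mature sequence is shown with the seed (bases 2 to 8) in capitals, as listed by RefSeq for chr5:98475616-98475636 (minus strand, GRCm38.p6):
mmu-miR-703: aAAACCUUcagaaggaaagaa
The assay captures polyadenylated RNA, so this value counts fragments at the hairpin locus and is not a level of the mature miRNA. The locus lies within Cfap299, on the opposite strand, which stood at 1.79 CPM. For tRNA genes such as mt-Tv, which lies directly between mt-Rnr1 and mt-Rnr2, the value likewise counts fragments at the locus.

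The constant regions of the T-cell receptor and of the antibody heavy chain were expressed without the genes that define lymphocytes. Trbc2 (chr6:41546730-41548352, plus strand) stood at 84.4, 76.8 and 81.0 CPM and Ighm (chr12:113418558-113422730, minus strand) at 53.6, 60.05 and 53.2 CPM. The 7 lymphocyte markers were far below, with list medians of 0.0524, 0 and 0 CPM. The B-cell gene Ms4a1 had 0.157, 0.165 and 0 CPM. Cd8a of T cells had 0 counts, and only Cd4 exceeded 1 CPM in any mouse, with 0.890, 3.24 and 0.382 CPM. In the comparison of the mice by edgeR's quasi-likelihood test, Cd4 was called as differing, which here means an adjusted p under 0.05 and fitted levels that span more than 1 on the log2 scale (adjusted p = 0.000366, highest in WT2). Only Cd4 of the 7 markers passed the count filter, which a scarce gene could pass through the mouse where it was high. With DESeq2 it was not called, as it had no adjusted p there. The T-cell receptor and antibody variable, diversity and joining genes together, 472 genes, included none above 1 CPM in all mice.

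Markers of the cell classes were compared by the median level of the members of each list. Of the 26 lists, pan-neuronal genes had the highest median, 605, 590.4 and 555 CPM, and the ranges of the other lists over the mice lay below it. Excitatory neuron markers followed among the brain classes with 116, 114 and 114 CPM, then oligodendrocyte markers with 71.2, 117 and 139 CPM, astrocyte markers with 74.8, 82.0 and 77.6 CPM and inhibitory neuron markers with 67.9, 77.5 and 73.1 CPM. Microglia markers came next with 35.8, 38.2 and 34.6 CPM. The neighbours excitatory and oligodendrocyte, oligodendrocyte and astrocyte, and astrocyte and inhibitory overlapped in their ranges over the mice, so their order was not separated by the spread. Inhibitory neurons and microglia did not overlap in CPM. Vascular and precursor lists were lower, with pericyte and smooth muscle at 8.37 ± 1.87 CPM, endothelial at 5.07 ± 0.976 CPM and oligodendrocyte precursor at 4.38 ± 0.699 CPM (SD, n = 3). A list median depends on which genes were listed, and single members of a list ranged, for oligodendrocyte precursors, from 0.992 to 146 CPM. On the length-scaled measure the pan-neuronal median became 364, the astrocyte median 48.4 and the inhibitory median 23.4, below the microglia median of 32.1. On that scale the red blood cell median, 407, stood above the pan-neuronal one.

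**Figure D3:**
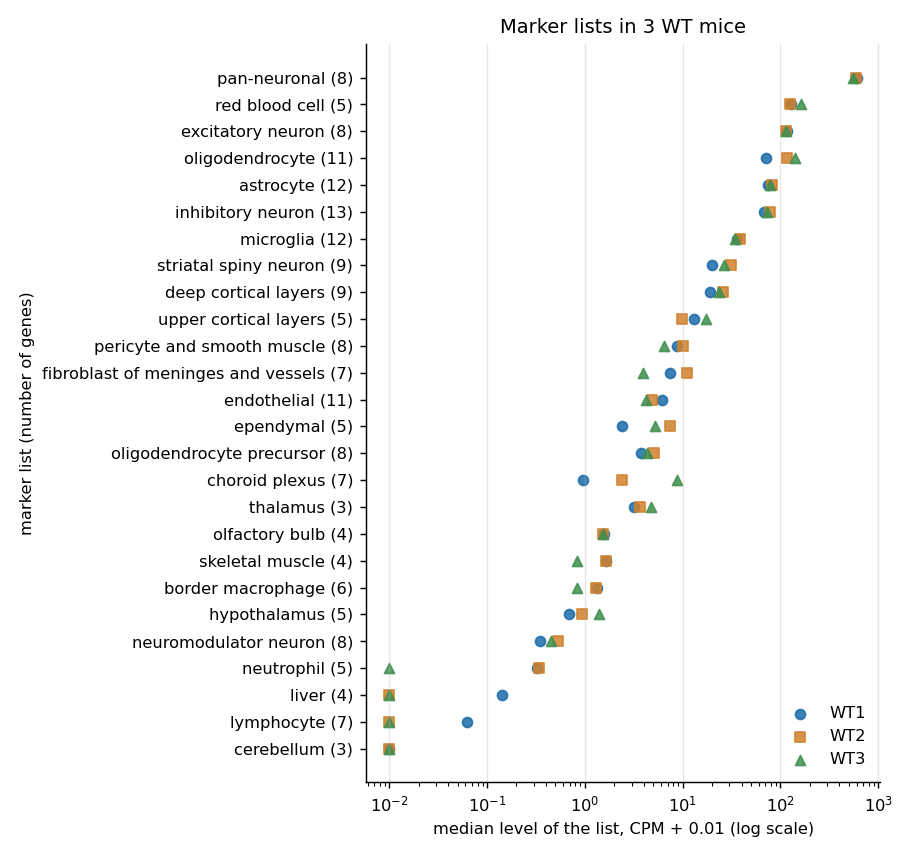
Median level of each marker list (x axis, CPM + 0.01, log scale) in the 3 WT mice, with the number of listed genes in brackets (y axis). The pan-neuronal list lies at the top near 583 CPM, the lists of lymphocytes, liver and cerebellum lie at the bottom, and the choroid plexus list is spread over the mice from 0.942 to 8.79 CPM.

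All 8 pan-neuronal genes were at or above 231 CPM in every mouse. Snap25, a SNARE protein of synaptic vesicle fusion, was highest with 4061, 3357 and 3246 CPM, and Syt1, the calcium sensor of that fusion, stood at 1335, 1308 and 1484 CPM. Map2 of dendritic microtubules was lowest with 251, 231 and 251 CPM, below the neuronal tubulin Tubb3 with 356, 350.4 and 295 CPM. The neuronal enolase Eno2 varied least, with 704 ± 9.68 CPM (SD, n = 3). Among excitatory markers the range was wider: Nrgn, a postsynaptic protein of dendritic spines, reached 3080.4, 2739 and 3335 CPM and Camk2a, the kinase of postsynaptic plasticity, 231, 227 and 280.3 CPM. The summed level of the excitatory list depended on the amount of cDNA, with 3937 to 4792 CPM in the 1 ng and 2613 to 3394 CPM in the 2 ng libraries. The list median did not separate in that way. The cortical vesicular glutamate transporter Slc17a7 stood at 100.01, 107 and 119.7 CPM and its subcortical counterpart Slc17a6 at 14.8, 17.5 and 21.1 CPM, the lowest of the list. Slc17a7 exceeded Slc17a6 by 6.75, 6.10 and 5.66 times. Between these extremes lay the neurogenic factors Neurod6 with 186, 165 and 172 CPM and Neurod2 with 132, 122 and 108 CPM, and Tbr1, a factor of early-born projection neurons, with 67.8, 71.0 and 83.3 CPM.

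Layer markers had lower medians than the general excitatory markers, 13.04, 9.82 and 17.4 CPM for the upper and 18.8, 25.8 and 23.4 CPM for the deep layers. Of the upper layer list Rorb, a factor of the granular layer, was highest with 52.8, 46.5 and 82.0 CPM and Cux1 next with 49.1, 43.9 and 53.7 CPM, while Rspo1 stood at 13.04, 7.62 and 7.90 CPM and Rasgrf2 at 0.419, 0.713 and 0.891 CPM, not above 1 CPM in any mouse. In the deep layers Bcl11b (Ctip2), a factor of subcortical projection neurons, reached 67.1, 79.0 and 74.9 CPM and Etv1 69.3, 73.9 and 66.3 CPM, with Fezf2 at 36.8, 40.7 and 36.8 CPM. The corepressor Tle4 had 37.8, 45.0 and 39.7 CPM, Foxp2, a factor of the deepest layer, 17.8, 24.6 and 23.4 CPM, and Ctgf, a secreted protein of subplate-derived cells, 18.8, 25.8 and 19.2 CPM. Ntsr1, which marks corticothalamic neurons, was at 2.25, 2.36 and 2.42 CPM and Nxph4 at 0.419, 0.329 and 1.27 CPM. Thus every deep layer marker exceeded 1 CPM in at least 1 mouse. WT3 had the highest level of 3 of 4 upper layer markers tested, as of 33.2% of all genes tested, and WT2 of 6 of 8 deep layer markers tested, as of 25.9% of all genes tested.

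All 13 inhibitory neuron markers were above 1 CPM in all 3 mice, and the 2 highest were neuropeptide precursors. Sst (somatostatin) stood at 754, 747 and 556 CPM and Npy (neuropeptide Y) at 769.8, 695 and 591 CPM, and their means of 686 and 685 CPM were alike, with overlapping ranges over the mice. The GABA-synthesising enzymes were lower, with Gad1 at 213, 206 and 194 CPM and Gad2 at 67.9, 77.5 and 73.1 CPM, a ratio of 3.13, 2.66 and 2.66. Pvalb, the calcium buffer of fast-spiking cells, was at 259, 222 and 273 CPM, and Lamp5 at 461, 398 and 371 CPM. The lowest members were the regulators Lhx6, a factor of interneurons from the medial ganglionic eminence, with 4.29, 4.77 and 5.73 CPM, and Adarb2, a marker of those from the caudal eminence, with 4.50, 4.44 and 3.69 CPM. In between stood the vesicular GABA transporter Slc32a1 with 36.2, 36.7 and 45.2 CPM, the secreted glycoprotein Reln (reelin) with 18.4, 13.4 and 15.7 CPM, the homeobox factor Dlx1 with 12.6, 10.9 and 8.91 CPM and the serotonin receptor Htr3a with 9.48, 8.94 and 5.22 CPM. Against the order of the list medians, Gad1 exceeded Slc17a7 in every mouse, and the ratio of Slc17a7 to Gad1 was 0.470, 0.518 and 0.617. Gad2 and Slc32a1 went with that order, as both stood below Slc17a7 in every mouse.

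Of the 11 neuropeptide precursors, Cck (cholecystokinin), made by both interneurons and pyramidal cells, was the highest with 2024, 2132 and 1964 CPM. After Cck, Sst and Npy came Vip (vasoactive intestinal peptide) with 136, 128 and 109 CPM, Penk (proenkephalin) with 73.4, 166 and 65.2 CPM and Tac1 (substance P) with 41.4, 61.9 and 32.2 CPM. Cort (cortistatin) with 32.6, 31.0 and 33.4 CPM, Crh (corticotropin-releasing hormone) with 28.01, 22.3 and 30.1 CPM, Adcyap1 (PACAP) with 28.4, 26.5 and 23.2 CPM and Pdyn (prodynorphin) with 25.2, 22.9 and 24.1 CPM formed a group of similar level. Nts (neurotensin) was the lowest with 1.99, 2.96 and 0.891 CPM. The precursors thus spanned from 1.95 to 2040.1 CPM on average. Between mice, Penk was called by the edgeR test (adjusted p = 1.55e-38) and the other 9 tested precursors were not, where 1.74% of all genes tested were called.

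All 12 astrocyte markers were above 1 CPM. Aldoc, the brain aldolase, was highest with 1765, 1582 and 1618 CPM, followed by the glutamate transporter Slc1a2 (GLT-1) with 624, 654 and 699 CPM. Slc1a3 (GLAST) stood at 309, 300.2 and 294 CPM, and Slc1a2 exceeded it by 2.02, 2.18 and 2.38 times. Gfap, the intermediate filament that marks reactive and white matter astrocytes, was the lowest of the 12 with 20.5, 23.3 and 15.5 CPM, next to the bicarbonate transporter Slc4a4 with 27.6, 26.9 and 28.8 CPM. The calcium-binding protein S100b stood at 356, 386 and 370.1 CPM, the connexins Gja1 and Gjb6 at 169, 181 and 162 CPM and 91.6, 94.5 and 100.6 CPM, and the water channel Aqp4 at 44.7, 69.5 and 49.9 CPM. Aldh1l1, a folate enzyme used as a general astrocyte marker, had 52.6, 51.2 and 54.5 CPM, and the factor Sox9 39.6, 41.0 and 44.4 CPM, so that both stood above Gfap in every mouse. The astrocyte list had a median CV over the mice of 5.59%, against 10.2% over all 12387 genes tested, which include scarcer genes. By level, the median CV was 9.05% for genes between 10 and 100 CPM and 7.09% between 100 and 1000 CPM.

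Myelin genes headed the glial lists. Mbp (myelin basic protein) reached 3765, 5569 and 4817 CPM. The lowest members, Ermn with 59.4, 77.9 and 79.8 CPM and Ugt8a, the enzyme of galactolipid synthesis, with 30.5, 45.5 and 43.4 CPM, closed the list. The myelin enzyme Cnp had 338, 537 and 450.3 CPM, the junction protein Cldn11 105, 188 and 185 CPM, and the adhesion molecules Mog and Mag 71.2, 105 and 100.1 CPM and 66.0, 100.2 and 97.8 CPM. All 11 genes were lowest in WT1, as were 28.9% of all genes tested. In the precursor list Olig1, which is also expressed in mature oligodendrocytes, stood apart with 119, 161 and 158 CPM, followed by Lhfpl3 with 15.0, 18.8 and 15.9 CPM. The precursor receptor Pdgfra had 6.75, 7.02 and 9.17 CPM, Olig2 2.41, 4.11 and 3.69 CPM and C1ql1 1.15, 0.932 and 0.891 CPM, the lowest of the list. The proteoglycan Cspg4 (NG2) had 3.30, 3.62 and 3.82 CPM and Gpr17, a receptor of cells committed to differentiate, 4.19, 6.14 and 4.08 CPM.

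Microglia markers ranged from 15.6 to 166 CPM on average. The complement component C1qb was among the highest with 118, 123 and 124 CPM. C1qa stood lowest with 12.4, 14.4 and 20.1 CPM and Siglech at 26.3, 32.7 and 24.96 CPM. The 3 C1q chains are encoded side by side, and C1qc with 97.0, 96.1 and 103 CPM was close to C1qb while C1qa was lower in every mouse. The purinergic receptor P2ry12, which marks resting microglia, had 53.5, 57.7 and 54.4 CPM, the receptor Csf1r, needed for microglial survival, 45.7, 51.5 and 47.2 CPM, the fractalkine receptor Cx3cr1 30.4, 35.0 and 36.7 CPM, and Tmem119 33.5, 33.1 and 27.6 CPM. Border macrophage markers were low, with the chemokine Pf4 highest with 7.49, 8.44 and 6.49 CPM, and Cbr2 followed with 1.204, 1.97 and 2.16 CPM. F13a1 with 0.942, 0.768 and 0.764 CPM and Cd163 with 0.524, 0.384 and 0.891 CPM did not exceed 1 CPM in any mouse.

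Endothelial markers split into abundant and scarce members. Itm2a stood at 95.9, 95.7 and 86.8 CPM and Ly6c1 at 63.2, 69.4 and 73.0 CPM, whereas the adhesion molecule Pecam1 had 0.942, 1.48 and 2.55 CPM and the VEGF receptor Kdr 1.94, 2.19 and 0.637 CPM. Cldn5, the tight junction protein of the blood-brain barrier, was also low with 4.29, 3.73 and 4.08 CPM. The glucose transporter Slc2a1 stood at 63.2, 68.4 and 60.6 CPM, the VEGF receptor Flt1 at 21.6, 16.4 and 18.5 CPM and the drug efflux pump Abcb1a at 6.13, 4.88 and 4.20 CPM. In the pericyte and smooth muscle list Vtn was highest with 76.4, 82.5 and 73.1 CPM and Rgs5 next with 58.4, 46.4 and 42.9 CPM, and the lowest were the myosin Myh11 with 1.68, 2.36 and 2.93 CPM and the channel subunit Abcc9 with 0.890, 0.823 and 0.891 CPM. Of the fibroblast markers of meninges and vessels Igf2 stood at 11.9, 19.4 and 16.8 CPM, Dcn (decorin) at 14.4, 23.2 and 10.1 CPM, Lum at 3.46, 5.92 and 2.67 CPM and the collagen chain Col1a1 at 1.99, 2.80 and 0.764 CPM.

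**Figure D4:**
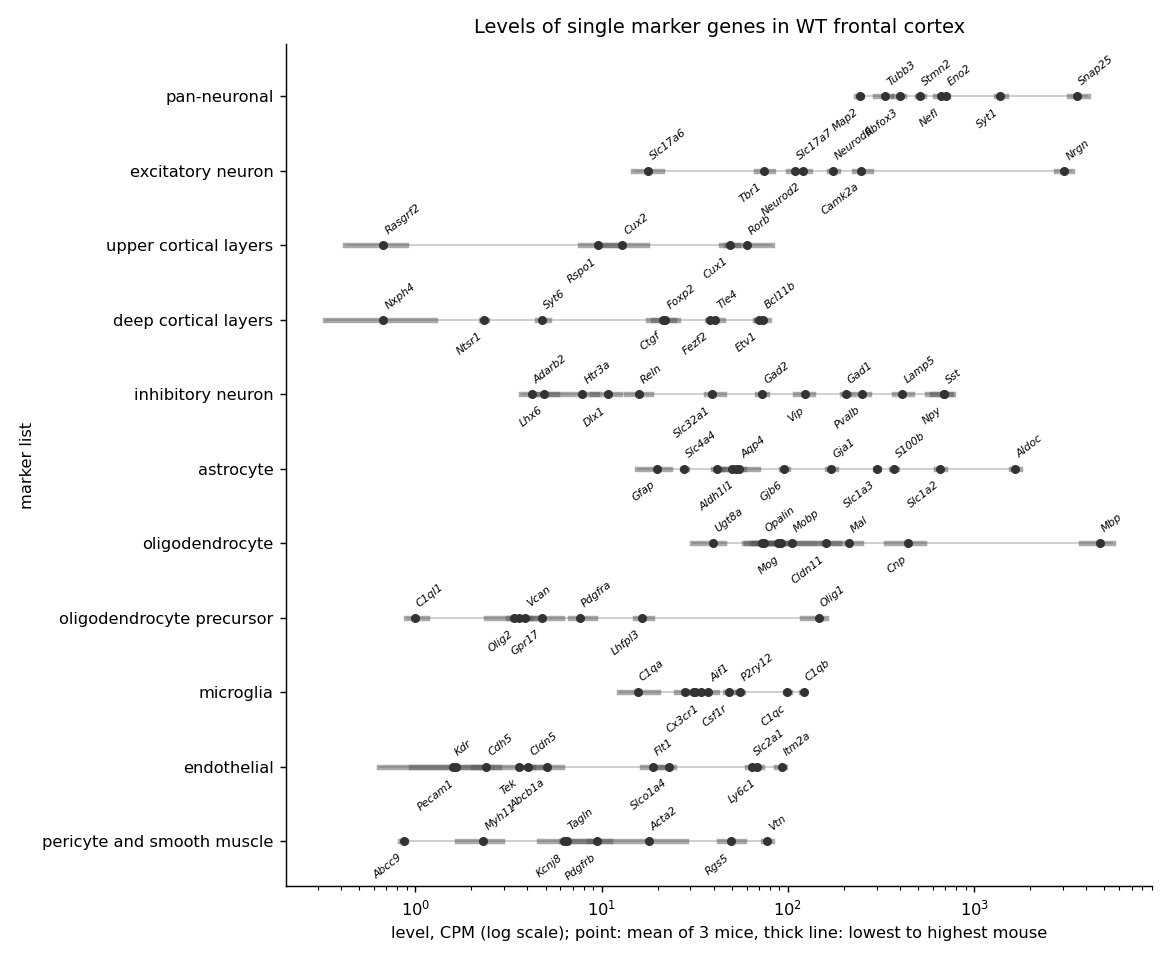
Level of marker genes (x axis, CPM, log scale) in 11 marker lists of cortical cell classes (y axis). The point is the mean of 3 WT mice, the thick line runs from the lowest to the highest mouse, and gene symbols are given where space allows. Single markers of a list differ far more than the mice do, as in the excitatory list from Slc17a6 at 17.8 to Nrgn at 3052 CPM.

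Markers of regions outside the frontal cortex were mostly low. The cerebellar granule cell receptor Gabra6 and the Purkinje cell gene Pcp2 had 0 counts, while Car8, also listed for the cerebellum, stood at 13.6, 17.6 and 13.8 CPM. Of the hypothalamic precursors Pomc was at 11.3, 10.6 and 10.8 CPM and Oxt at 0.681, 0.219 and 2.16 CPM, with Pmch at 0.628, 0.932 and 1.40 CPM and Hcrt, the lowest, at 0.576, 0.384 and 1.15 CPM. The thalamic list had Lef1 highest with 7.44, 5.48 and 4.71 CPM, Prkcd with 2.88, 3.67 and 5.35 CPM and Tcf7l2 with 3.19, 3.24 and 4.58 CPM. For the olfactory bulb Doc2g stood at 2.88, 4.06 and 4.84 CPM, Th at 2.36, 2.30 and 2.29 CPM, Cdhr1 at 0.785, 0.768 and 0.764 CPM and Eomes at 0, 0 and 0.127 CPM. Of the neuromodulator neurons, most of whose cell bodies lie outside the cortex, 5 of 8 genes did not exceed 1 CPM in any mouse. Th and Tph2 (1.1, 1.54 and 2.16 CPM) were highest and Dbh (0.262, 0.0548 and 0 CPM) and the serotonin transporter Slc6a4 (0.0524, 0 and 0 CPM) lowest. Striatal markers were higher. Ppp1r1b (DARPP-32), which cortical neurons also express, reached 145, 207 and 128 CPM, Penk came next, Adora2a stood at 0.105, 0.823 and 0.509 CPM and Drd2 at 0 counts in all 12 libraries.

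The dopamine receptor Drd1 was detected with 7.44, 14.8 and 6.37 CPM, while Adora2a and Drd2 were the 2 members of the list not above 1 CPM in any mouse. The deposited table gives Drd2 (chr9:49340627-49408177, plus strand) a length of 1549 bases, and its longest transcript in GENCODE vM21 has 2547 bases. For Drd1 the lengths were 3526 and 3576 bases. The annotated end of Drd2 in the later release, at chr9:49408141-49408170, holds the poly(A) signal in capitals:
Drd2: caaaccAATAAAaccttgacaagagtcatt
Whether reads of Drd2 lay outside the shorter gene model was not tested.

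Hemoglobin genes were found in all 3 samples. Hbb-bs stood at 394, 412 and 538 CPM, Hba-a1 at 171, 152 and 220.1 CPM, Hba-a2 at 128, 125 and 162 CPM and Hbb-bt at 57.8, 56.3 and 81.1 CPM, while Alas2, the erythroid enzyme of heme synthesis, had 5.03, 3.95 and 3.95 CPM. The alpha and the beta globin genes are pairs of near-identical copies, and only uniquely aligned reads were counted, so the split between the members of a pair is uncertain. The red blood cell median changed with the library set, from 57.9 CPM in the 2ngA libraries to 185 CPM in the 1ngB libraries. It followed the amount of cDNA in every mouse, with 158 to 211 CPM in the 1 ng and 50.7 to 115 CPM in the 2 ng libraries. Neutrophil and liver genes were scarce. S100a8 was highest among neutrophil genes with 0.785, 2.41 and 0.382 CPM and S100a9 next with 0.733, 0.768 and 0 CPM, and Ngp (0.262, 0.110 and 0 CPM) and Retnlg (0.314, 0.0548 and 0 CPM) were lowest. Of the liver genes Apoa1 stood at 4.66, 2.19 and 3.57 CPM and albumin (Alb) at 0.209, 0 and 0 CPM, Serpina1a had 0.0524, 0 and 0 CPM and Cyp3a11 had 0 counts. In the skeletal muscle list Acta1, the muscle actin, had 67.6, 58.5 and 50.6 CPM, unlike Mylpf with 2.78, 2.69 and 1.15 CPM, Myh4 with 0.524, 0.548 and 0.509 CPM and Ckm with 0.471, 0.0548 and 0.255 CPM.

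Immediate early genes, which neurons transcribe rapidly after activity, were all above 1 CPM. The zinc finger factor Egr1 was highest with 304, 246 and 342 CPM, followed by Egr4 with 59.9, 64.7 and 64.1 CPM, Arc with 53.2, 37.5 and 62.4 CPM, Junb with 61.3, 36.9 and 41.9 CPM and Fos with 50.7, 35.0 and 44.1 CPM. Dusp1 stood at 26.1, 19.9 and 27.4 CPM, Ier2 at 25.03, 20.7 and 21.9 CPM, Nr4a1 at 22.7, 15.1 and 21.9 CPM and Btg2 at 11.4, 11.1 and 12.99 CPM. Egr2 with 11.9, 8.34 and 7.64 CPM, Fosb with 7.28, 6.09 and 7.51 CPM and Npas4 with 8.06, 7.02 and 4.71 CPM were the lowest. WT2 was the lowest mouse for 9 of the 12 genes, as it was for 26.3% of all genes tested. None of the 12 passed the fold threshold of the test between mice, although 6 had an adjusted p under 0.05 by edgeR's quasi-likelihood test, against 21.9% of all genes tested.

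The 3 mice were compared gene by gene with edgeR's quasi-likelihood F-test on the 12 libraries, adjusted over all genes tested. A gene was called where the adjusted p was under 0.05 and the fitted levels of the mice spanned more than 1 on the log2 scale. Of 12387 genes tested, 216 were called (1.74%). The highest level was in WT1 for 43 (0.347% of genes tested), in WT2 for 66 (0.533%) and in WT3 for 107 (0.864%). Pair by pair, 39 genes (0.315%) differed between WT1 and WT2, 176 (1.42%) between WT1 and WT3 and 121 (0.977%) between WT2 and WT3. Most called genes were scarce, with a median of 4.93 CPM, and 35 had a mean above 10 CPM. The count filter asked for enough counts in only as many libraries as 1 mouse has. A scarce gene could thus enter the test through the mouse where it was high. All 4 libraries of each animal were made from 1 RNA sample, and the p-values therefore measure only the spread of library making. The test took the 4 libraries as independent, but those of a mouse with the same set letter deviated together. The p-values can thus be too small even for that spread. With the 2 ng and 1 ng libraries of each set letter summed, an alternative chosen after seeing the data, 156 genes were called, and 34 of the 35 genes above 10 CPM kept their call.

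Choroid plexus genes were the most uneven between the mice. Ttr (transthyretin), the main secreted protein of the choroid plexus, stood at 103, 152 and 3918 CPM, 38.1 times higher in WT3 than in WT1 (adjusted p = 2.42e-150). Its 4 libraries lay from 3690.3 to 4340.2 CPM in WT3, above all 8 libraries of the other mice. The potassium channel Kcnj13 had 4.03, 3.67 and 19.1 CPM (adjusted p = 4.81e-15), the folate receptor Folr1 1.88, 1.97 and 15.0 CPM (adjusted p = 3.34e-15), and Clic6 0.209, 2.63 and 8.79 CPM (adjusted p = 9.51e-13). Kl (klotho) with 0.733, 2.41 and 5.73 CPM and the prolactin receptor Prlr with 0.942, 1.21 and 6.11 CPM were also highest in WT3. All 6 markers tested were called with the highest level in WT3, against 0.864% of all genes. Scarce markers such as Folr1 and Prlr could enter the test through the counts of WT3 alone. For them the share of all genes is not a like comparison. Otx2, at 0.105, 0.165 and 1.40 CPM, was too scarce to be tested. 1500015O10Rik, the gene of augurin, which the choroid plexus also expresses, had the widest range after Ttr among called genes above 10 CPM, with 6.49, 10.04 and 27.1 CPM (adjusted p = 1.04e-15).

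Other lists were highest in WT2. The ependymal genes Tmem212, with 0.628, 7.46 and 5.22 CPM (adjusted p = 1.95e-11), and Ccdc153, with 0.524, 7.02 and 3.44 CPM (adjusted p = 7.96e-11), were lowest in WT1, and 5 of 5 ependymal markers were highest in WT2. Rarres2 with 13.6, 18.8 and 18.3 CPM, Dynlrb2 with 4.76, 7.46 and 5.73 CPM and Foxj1, the regulator of motile cilia, with 2.41, 4.94 and 4.58 CPM were not called. Of the striatal list all 7 members tested were highest in WT2, and 3 were called, against 0.533% of all genes: Penk (adjusted p = 1.55e-38), the G-protein regulator Rgs9 with 5.86, 19.1 and 4.46 CPM (adjusted p = 1.01e-14), and Drd1 (adjusted p = 7.32e-06). Highest in WT2 were 25.9% of all genes tested. The fibroblast markers Dcn (adjusted p = 2.2e-06), Ogn with 10.3, 12.01 and 3.95 CPM (adjusted p = 3.87e-05), Col1a2 with 7.44, 11.0 and 3.82 CPM (adjusted p = 0.000364) and Lum (adjusted p = 0.0325) and the smooth muscle actin Acta2 with 16.9, 28.5 and 8.53 CPM (adjusted p = 7.19e-12) were called with the highest level in WT2 and the lowest in WT3. Serpinf1, the gene of pigment epithelium-derived factor, had 10.4, 15.7 and 5.48 CPM (adjusted p = 7.85e-06). The fibroblast list thus had 4 of 6 tested members called with the highest level in WT2, and the ependymal list 2 of 5, against 0.533% of all genes tested. Scarce genes such as Tmem212 and Ccdc153 could enter the test through the mice where they were high. For them that share is not a like comparison. With DESeq2 2 of the choroid plexus, 2 of the fibroblast and 0 of the ependymal markers were called, and the other members called by edgeR had no adjusted p there. Lum lost its call with the libraries of a set letter summed (adjusted p = 0.126, edgeR).

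**Figure D5:**
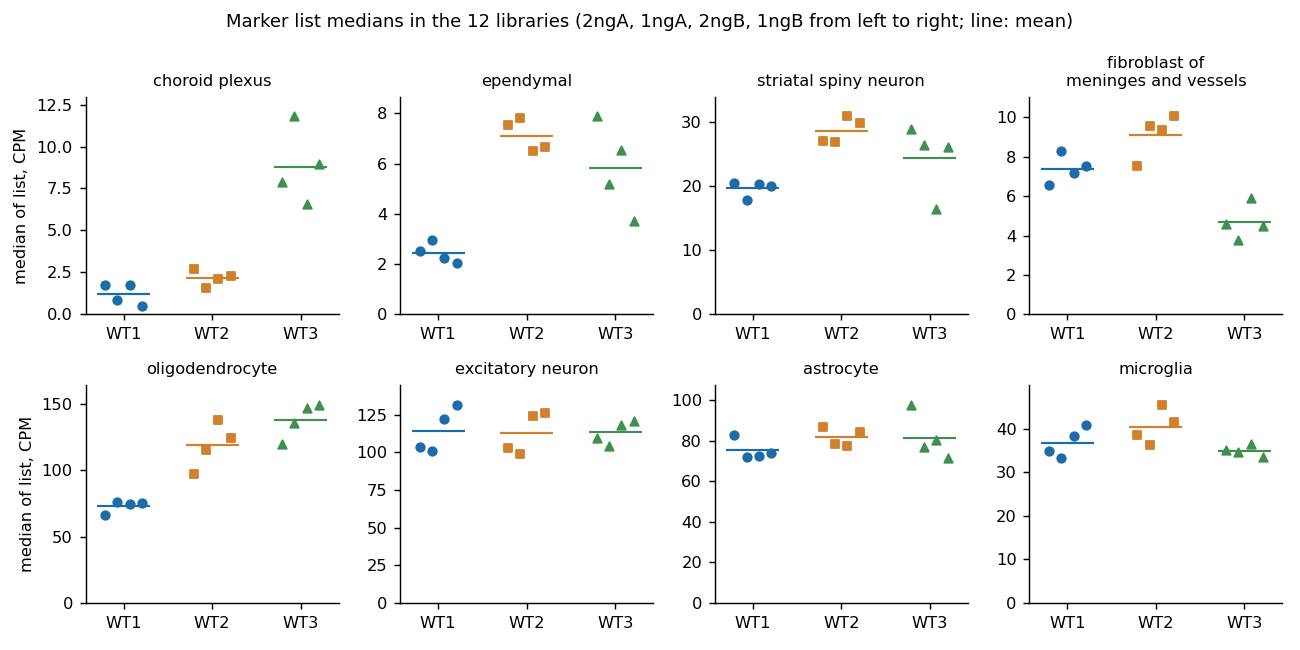
Median level in CPM (y axis) of 8 marker lists in the 12 WT libraries, grouped by mouse (x axis), with the 2ngA, 1ngA, 2ngB and 1ngB libraries from left to right and the line at their mean. The choroid plexus libraries of WT3 (6.56 to 11.8 CPM) lie above those of WT1 (0.470 to 1.77 CPM), the oligodendrocyte libraries of WT1 (66.6 to 76.0 CPM) below those of WT2 and WT3, and the excitatory, astrocyte and microglia libraries of the mice overlap.

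Oligodendrocyte genes were lowest in WT1. All 11 listed genes had an adjusted p under 0.05 by edgeR, against 21.9% of all genes tested, and Mobp, a myelin protein, also passed the fold threshold with 58.2, 117 and 139 CPM (adjusted p = 4.69e-31). The fitted range was 0.59 on the log2 scale for Mbp (adjusted p = 1.22e-56). The median range of the list was 0.63, against 0.28 for all genes tested. The adjusted p was also under 0.05 for 7 of 8 pan-neuronal and 7 of 8 excitatory markers, with median ranges of 0.19 and 0.32. None of the pan-neuronal, excitatory, inhibitory, astrocyte, microglia, endothelial or layer markers was called, where 1.74% of all genes were, and the highest of their median ranges, 0.81 for the upper layers, exceeded that of the oligodendrocyte list.

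Of the 35 called genes above 10 CPM, 26 were highest in WT3, the mouse with the fewest counts. Apart from Ttr and 1500015O10Rik they included the lipase Abhd2 with 8.85, 11.3 and 33.6 CPM (adjusted p = 1.25e-17), the anion channel subunit Lrrc8a with 8.17, 5.70 and 19.5 CPM (adjusted p = 2.51e-10) and the GTPase-activating protein Agap2 with 15.8, 17.5 and 48.0 CPM (adjusted p = 3.53e-20). The mitochondrial arginine tRNA gene mt-Tr had 18.7, 34.4 and 52.7 CPM (adjusted p = 8.58e-18), from fragments at its locus that need not be mature tRNA. Lmbrd2 had 8.22, 12.1 and 21.5 CPM (adjusted p = 1.01e-07). Yam1 was called as well, with a range of 1.11 on the log2 scale (adjusted p = 3.78e-95). For 20 of the 35 genes every library of the highest mouse exceeded all 8 libraries of the other mice. With all libraries thinned to the smallest total, 29 of the 35 kept their call, among 51 genes above 10 CPM called there. Without WT3, 2 of the 35 remained called, and without WT1 19. The choroid plexus markers were highest in the same mouse, and their part in the other calls was not tested.

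Many abundant genes varied little. The smallest CV over the mice among genes above 100 CPM was that of Snx10, a sorting nexin of endosomes, with 176, 175 and 175 CPM, or 0.232%. It was followed by the fumarase gene Fh1 with 104, 104 and 103 CPM, the proteasome subunit Psmb4 with 347, 349 and 348 CPM, the ubiquitin-conjugating enzyme Ube2ql1 with 130.3, 129.5 and 131 CPM and the tubulin Tuba1b with 453, 449.7 and 449 CPM. These 5 genes were chosen for their small spread, so the values describe and do not test it. The median CV over the 3 mice was 19.4% for genes between 1 and 10 CPM, 9.05% between 10 and 100 CPM, 7.09% between 100 and 1000 CPM and 7.61% above. The median CV over the 4 libraries of a mouse was lower at higher levels, going from 36.1% to 8.21%. Across the 13548 genes above 1 CPM the log2 levels of the mice correlated with Pearson's r of 0.993 (WT1 and WT2), 0.986 (WT1 and WT3) and 0.988 (WT2 and WT3), a description across genes, which are not independent replicates.

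The sequences at both ends of protein-coding genes differed between tiers of expression level. AATAAA on the sense strand within the last 50 bases of a coding transcript was found in 49.5% of genes with no counts, 64.6% of genes up to 1 CPM, 71.5% between 1 and 10 CPM, 73.8% between 10 and 100 CPM, 77.9% between 100 and 1000 CPM and 76.0% above 1000 CPM. Over all 21349 genes matched to a transcript the share was 66.4%, or 78.7% with ATTAAA counted too. The step was largest between genes with no counts and genes up to 1 CPM. Genes with more annotated transcripts have more ends to search, and the mean number of coding transcripts went from 1.87 to 3.59 over the same tiers. At the start of the gene, the ratio of observed to expected CpG in the promoter (250 bases before to 50 after the start, RefSeq, GRCm38.p6) had a median of 0.154 for genes with no counts, 0.347 up to 1 CPM, 0.680 between 1 and 10 CPM, 0.795 between 10 and 100 CPM, 0.808 between 100 and 1000 CPM and 0.769 above 1000 CPM. Promoters were found by symbol for 15958 of 21958 protein-coding genes.

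A TATAAA motif on the sense strand between 50 and 11 bases before the start was less common in genes above 1 CPM. It was present in 7.11% of promoters of genes with no counts and 5.1% of those up to 1 CPM. The share was 1.78% between 1 and 10 CPM, 0.887% between 10 and 100 CPM and 1.17% between 100 and 1000 CPM. Above 1000 CPM 1 of 51 promoters held it (1.96%), against 3.18% of all promoters. Of the immediate early genes 1 of 9 promoters held the motif in this window, that of Fos, and of the neuropeptide precursors 1 of 9, that of Vip. Both windows of 30 bases are shown with the motif in capitals:
Fos: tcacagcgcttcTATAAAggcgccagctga
Vip: aagcacaagcccTATAAAatgagagacttt
They lie at chr12:85473845-85473874 and chr10:5639176-5639205, both on the plus strand, with the first base of the motif 33 and 30 bases before the start. The CpG ratio was 0.775 for Fos and 0.310 for Vip. By list, the median CpG ratio of promoters was 0.827 for immediate early genes and 0.631 for pan-neuronal genes, with 5 of 8 promoters found. It was 0.445 for excitatory, 0.576 for inhibitory, 0.294 for astrocyte, 0.364 for oligodendrocyte and 0.224 for microglia markers. Over all promoters it was 0.600, which includes genes with no counts, and between 100 and 1000 CPM it was 0.808. These are descriptions of letters in fixed windows and say nothing of which factors were bound.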

How the data were processed

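The authors deposited a table of raw counts of reads per gene for 24 libraries, with an Ensembl gene identifier, a symbol, a type and a length for each of 33000 genes. Per the study's methods, poly(A) stretches were trimmed from the reads, reads were aligned to the mouse genome (mm10) with STAR (version 2.4 per the submitters' processing notes), and uniquely aligned reads were counted over GENCODE vM6 genes with featureCounts. The labels list hg19 as the build, and the strand setting is not given in the sources used here. The 12 GFAP-IL6 columns were not analysed here.

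The counts of the 4 libraries of each WT mouse were summed and divided by their total (CPM). Genes were counted as present above 1 CPM in all 3 mice. Between mice, genes kept by filterByExpr were tested on the 12 libraries with edgeR 4.0.16 (R 4.3.3, TMM normalization, quasi-likelihood F-test, library set as a block, Benjamini-Hochberg adjustment). Called genes had an adjusted p under 0.05 and a fitted range over 1 on the log2 scale. DESeq2 1.42.0 was an alternative, beside other filters, no block, no fold threshold, the 2 ng or 1 ng libraries only, thinning to equal totals, other scales and leaving out each mouse. Libraries with the same set letter shared deviations from the other mice (correlation 0.207 to 0.298 for genes of 5 to 20 counts, against 0.0467 to 0.130 across letters); as an alternative chosen after this was seen, the libraries of a letter were summed.

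Named genes were the 10 with the highest mean, the 3 highest lincRNA and antisense genes and the highest of each other type above 1 CPM, the highest and lowest 2 of each marker list, all sex-linked, immediate early, red blood cell and neuropeptide genes, the 10 widest called genes above 10 CPM and the 5 with the smallest CV above 100 CPM. A few genes that this rule names are not reported here. Other list members were named for their known roles after their values were seen. The members, marker lists and tests were chosen with earlier results of these data known. Sequences were read from GRCm38.p6 with GENCODE vM21 transcripts and from RefSeq tables with Python 3.11.15, pandas 2.3.3 and matplotlib 3.10.9.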

Additional observations from a re-analysis of the deposited data

How the results depend on the processing

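The count of genes above 1 CPM in all mice stayed within 1.5 times its value under all 12 alternatives. The shares of protein-coding genes, of the mitochondrial chromosome and of the 10 most abundant genes moved by less than 1 SD of the mice under all 8 of theirs. Leaving out 1 of 3 mice cannot move a mean by 1 SD of the same mice, so those alternatives could not show a change in the shares. The lincRNA share was 3.05% in the 2ngA libraries alone against 3.35%. Class medians moved by more than 1 SD under 78 and by less under 208 combinations of class and alternative. The 208 include those with a mouse left out, where 0 of 26 classes moved and none could. Scaled by gene length 21 of 26 moved, and with the mean of log2 levels in place of the median 20 of 26. The counts of genes that differed between mice depended on the settings. With DESeq2 they were 49 among the 3 mice, 2 between WT1 and WT2, 43 between WT1 and WT3, 32 between WT2 and WT3, and 170 of the 216 called genes had no adjusted p there. With at least 10 counts in every library, which left 9352 genes to test, they were 39 among the 3 mice, 4 between WT1 and WT2, 33 between WT1 and WT3, 19 between WT2 and WT3. Without the block for the library set they were 90 among the 3 mice, 11 between WT1 and WT2, 93 between WT1 and WT3, 50 between WT2 and WT3. Without the fold threshold they were 2709 among the 3 mice, 852 between WT1 and WT2, 2496 between WT1 and WT3, 1408 between WT2 and WT3. After thinning they were 125 among the 3 mice, 17 between WT1 and WT2, 106 between WT1 and WT3, 61 between WT2 and WT3. The 2 ng libraries alone gave 131 among the 3 mice, 17 between WT1 and WT2, 71 between WT2 and WT3, and the 1 ng libraries alone 129 among the 3 mice, 115 between WT1 and WT3, 66 between WT2 and WT3. Leaving out 1 mouse gave 40 (without WT3) to 135 (without WT2) genes, with fewer mice to differ. Beyond the number of samples or genes tested, the cause of these changes was not tested. Of the 35 called genes above 10 CPM, 35 kept their call with DESeq2, 30 without the block, 28 in the 2 ng and 25 in the 1 ng libraries. The genes above 10 CPM called in those settings numbered 37, 32, 67 and 49. No paired analysis was possible because the replicate number is the mouse, which is itself the factor compared. The library sets, which all 3 mice share, were a block in the test reported, and the counts without that block are those given above. The depth of WT3, 7852743 counts, limits genes near 1 CPM most.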

Other observations

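Genes often used as internal references were expressed over a wide span. Actb, the cytoskeletal actin, was highest with 2217, 2458 and 2907 CPM, followed by the peptidyl-prolyl isomerase Ppia with 994, 935 and 689.8 CPM and the 14-3-3 protein Ywhaz with 582, 611 and 603 CPM. Gapdh, the glycolytic enzyme, stood at 353, 381 and 312 CPM and B2m, the light chain of MHC class I, at 350.1, 352 and 348 CPM. The lowest were the glucuronidase Gusb with 26.0, 22.7 and 20.6 CPM and the TATA-binding protein Tbp with 26.2, 21.4 and 19.2 CPM. B2m varied least, with 349.9 ± 2.23 CPM (SD, n = 3), and Pgk1, another glycolytic enzyme, varied most, with 85.9 ± 19.6 CPM (SD, n = 3). Of the 11 genes, 6 were highest in WT1 (all genes tested: 40.8%) and 9 lowest in WT3 (all genes tested: 44.8%). By edgeR's test 5 had an adjusted p under 0.05 (all genes tested: 21.9%), and 0 also passed the fold threshold.

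The 86 genes of cytosolic ribosomal proteins took 3.39%, 3.66% and 3.80% of the counts (3.62% ± 0.207, SD, n = 3). Of the chromosomes, the mitochondrial one had the highest share, and among nuclear chromosomes 2 led with 7.97%, 7.81% and 7.66% and 11 followed with 7.26%, 7.01% and 6.87%. The X chromosome took 3.28%, 3.28% and 3.15% and the Y chromosome, with 5 of 748 genes above 1 CPM in all mice, 0.0120%, 0.0131% and 0.0117%.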
